A study of Mus musculus with 8 samples.

Results

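The 36 genes described here encode BRCA1 and its partners, the other homologous recombination proteins, the Fanconi anemia proteins, the kinases that signal DNA damage, and proteins that protect or join broken ends by other routes. They were taken from a list of gene symbols, and all 36 were found among the 35539 Ensembl IDs of the table. Bulk RNA-seq was available for 8 mammary tumors, 4 from Brca1f/f Trp53+/- mice (tumors 1 to 4, control) and 4 from HMMR Tg/Tg Brca1f/f Trp53+/- mice (tumors 5 to 8, HMMR-Tg). In the study's methods, both groups carried Blg-Cre, a recombinase driven by the β-lactoglobulin promoter in mammary epithelium during lactation, both had floxed 3′ exons of Brca1 and a single intact copy of Trp53, and all were parous females of mixed background. The HMMR-Tg mice also carried, on both alleles of Rosa26, a human HMMR cDNA behind a STOP cassette that Cre removes. Both groups therefore lose Brca1 function in the recombined epithelium, and no tumor with intact Brca1 was part of the comparison. The labels call the mice age-matched but give no age. The study describes the sequenced tumors of both groups as similar in their average time from induction to diagnosis. The labels do not tie tumors to mice, so p-values measure the spread between these tumors. Stroma, vessels and leukocytes keep an unrecombined Brca1 gene, and in bulk tissue fewer cells that express a gene cannot be told apart from less RNA per cell.

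Homologous recombination copies the sister chromatid to mend a double-strand break. BRCA1 with BARD1 and CtIP (encoded by Rbbp8) favors resection of the broken end, PALB2 links BRCA1 to BRCA2, and BRCA2 loads the recombinase on single-stranded DNA. The Fanconi core complex attaches ubiquitin to the FANCD2 and FANCI proteins at DNA crosslinks, which opens the way to recombination. Many of these genes are transcribed mainly in cells that replicate DNA, and tumors without BRCA1 are known for genomic instability and for sensitivity to PARP inhibitors.

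The measured unit was TPM, a gene's share of a tumor's transcripts after correction for transcript length. TPM keeps no depth, and the number of reads behind each value is unknown. All 36 genes had a mean of at least 1 TPM, the minimum for a test, and 14835 genes of the table passed it. Their median mean level was 12.0 TPM against 18.7 TPM for all tested genes, and their median SD across tumors was 0.394 on the log2(TPM + 1) scale against 0.442. Rank correlations between tumors over the tested genes ran from 0.866 to 0.955. The summed epithelial markers were between 2103 and 6492 TPM in every tumor. The skeletal muscle score, the mean log2(TPM + 1) of 12 marker genes, was 4.45, 2.68 and 4.71 in tumors 1, 3 and 6 and between 0.65 and 0.92 in the other 5.

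Promoters of 5 genes are shown because they hold, in capitals, motifs that regulators of cell cycle genes are known to bind, and the members are set beside a mitosis score further on. E2F factors bind E2F sites in S-phase genes, the CHR element is used in late cell cycle genes, and NF-Y binds CCAAT boxes. The 300-base windows around the annotated start come from RefSeq on build GRCm38.p6, unlike the mm9 coordinates of the genes. They are Brca1 at chr11:101551906-101552205 (minus strand), Bard1 at chr1:71102923-71103222 (minus), Rmi1 at chr13:58402347-58402646 (plus, the 1 of its 2 windows picked for its matches), Chek2 at chr5:110839733-110840032 (plus) and Brca2 at chr5:150522371-150522670 (plus). Capitals mark E2F letters (TTTCCCGC, TTTGGCGC or GCGGGAAA), CHR letters (TTTGAA) and CCAAT letters (or ATTGG on the other strand).
Brca1: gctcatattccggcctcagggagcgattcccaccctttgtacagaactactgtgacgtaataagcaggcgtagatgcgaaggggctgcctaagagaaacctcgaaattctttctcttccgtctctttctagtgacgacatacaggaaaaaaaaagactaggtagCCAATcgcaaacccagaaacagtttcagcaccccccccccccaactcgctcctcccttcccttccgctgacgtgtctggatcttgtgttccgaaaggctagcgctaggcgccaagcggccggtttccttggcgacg
Bard1: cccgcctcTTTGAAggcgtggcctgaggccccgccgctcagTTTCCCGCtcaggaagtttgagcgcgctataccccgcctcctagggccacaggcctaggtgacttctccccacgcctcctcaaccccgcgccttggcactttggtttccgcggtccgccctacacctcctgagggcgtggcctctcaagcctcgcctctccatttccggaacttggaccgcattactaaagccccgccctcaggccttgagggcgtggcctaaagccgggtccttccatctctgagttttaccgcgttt
Rmi1: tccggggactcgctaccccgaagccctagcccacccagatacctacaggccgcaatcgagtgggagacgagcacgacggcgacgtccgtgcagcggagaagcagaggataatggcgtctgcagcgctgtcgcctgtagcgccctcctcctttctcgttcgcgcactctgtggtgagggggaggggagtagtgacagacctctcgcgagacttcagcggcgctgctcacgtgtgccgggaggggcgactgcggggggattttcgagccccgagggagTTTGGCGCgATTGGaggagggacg
Chek2: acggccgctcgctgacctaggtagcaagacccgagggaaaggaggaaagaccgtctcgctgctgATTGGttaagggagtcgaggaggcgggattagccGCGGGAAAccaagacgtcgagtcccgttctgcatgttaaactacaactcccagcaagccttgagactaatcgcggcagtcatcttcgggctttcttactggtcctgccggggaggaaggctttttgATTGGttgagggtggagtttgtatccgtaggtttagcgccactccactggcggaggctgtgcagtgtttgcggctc
Brca2: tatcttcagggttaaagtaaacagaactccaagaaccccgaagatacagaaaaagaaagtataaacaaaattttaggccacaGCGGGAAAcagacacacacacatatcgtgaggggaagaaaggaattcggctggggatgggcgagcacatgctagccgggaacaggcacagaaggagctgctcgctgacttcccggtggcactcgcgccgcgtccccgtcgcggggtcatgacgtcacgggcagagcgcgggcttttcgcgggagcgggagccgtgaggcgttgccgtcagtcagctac
Bard1 has both an E2F and a CHR match and no CCAAT match. Chek2 has 1 E2F match between 2 CCAAT matches, Brca2 an E2F match alone, and Rmi1 an E2F match next to a CCAAT match. The Brca1 window holds a CCAAT match and neither of the other 2 motifs.

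Of the 36 genes, 29 had a window in the RefSeq table. E2F letters (TTTCCCGC, TTTGGCGC, TTTCGCGC or TTTGCCGC, either strand) stood in 6 of them, namely Bard1, Brca2, Rad51c, Fancg, Chek2 and Rmi1, a share of 20.7% against 2.6% of all 27025 genes in the table. CHR letters stood in 3 (Bard1, Rad51b and Polq), 10.3% against 20.2%, and CCAAT letters in 17, 58.6% against 41.1%. Genes with a single window gave like shares, with E2F letters in 4 of 25 members and 2.3% of 22862 genes. No match overlapped a match of another motif in the printed windows. A match describes the letters and was not tested as a binding site.

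The first question was whether tumors that overexpress HMMR carry a different level of these repair genes. No member differed between the genotypes in the limma fit over 14835 genes (adjusted p = 0.9998 for each), where 9 genes, or 0.0607%, passed. The difference was above 0 for 16 members and below 0 for 20, with a median of -0.06 on the log2(TPM + 1) scale against -0.01 over all tested genes. A single member, Chek2, had an unadjusted p under 0.05, against 3.46% of all tested genes. The genotypes overlapped for every member, while they were separate for 2.23% of the tested genes. The endothelial marker score was between 2.85 and 3.17 in control and between 3.23 and 4.18 in HMMR-Tg tumors, and its part in these differences was not tested.

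**Figure D1:**
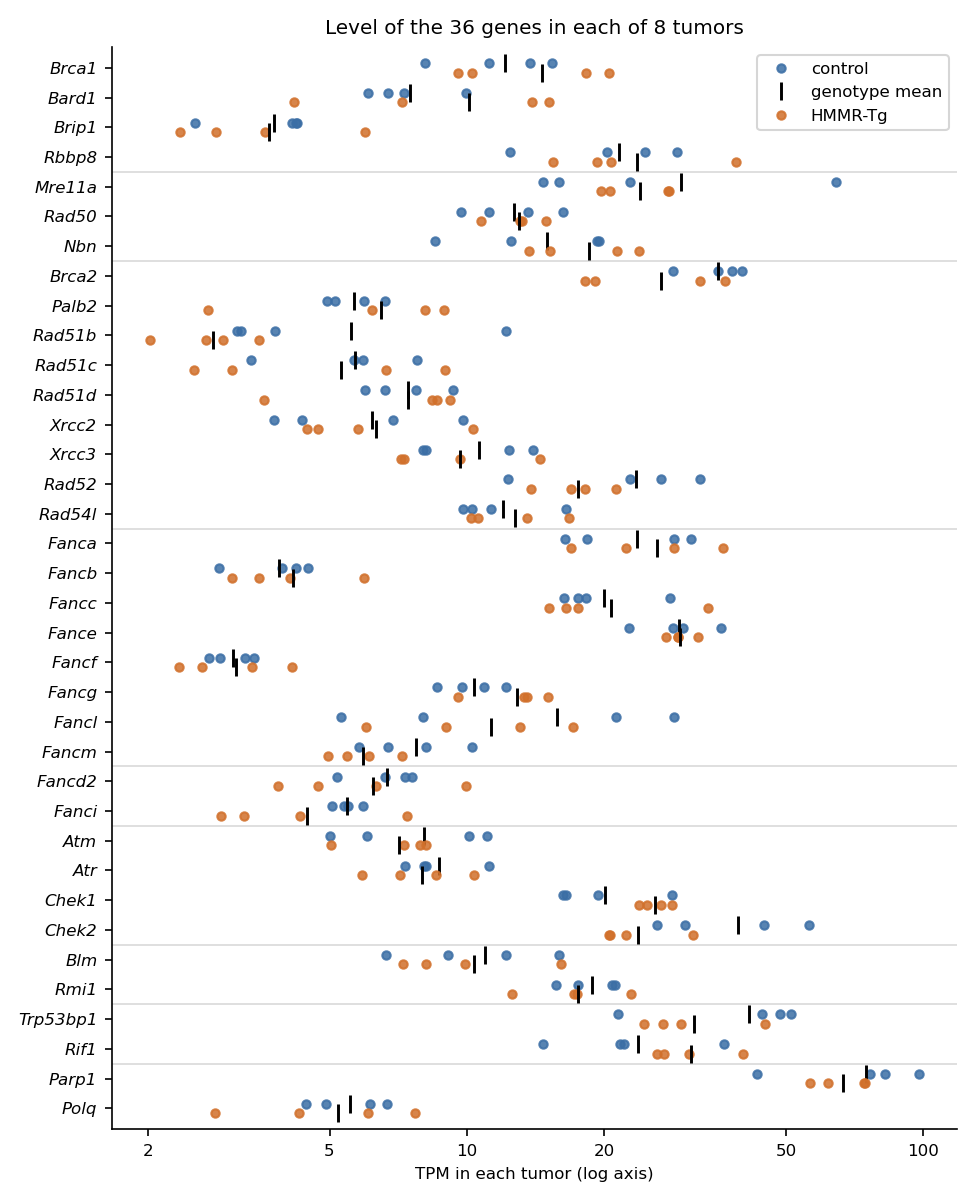
TPM of each of the 36 genes (rows, grouped by role) in each of the 8 tumors, on a log axis, with control tumors in blue above HMMR-Tg tumors in orange and a bar at each genotype mean. The colors overlap in every row, Parp1 has the highest mean (70.9 TPM) and Fancf the lowest (3.09 TPM), and single tumors stand apart for Mre11a (64.3 TPM) and Rad51b (12.2 TPM).

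Brca1 itself (chromosome 11, 101350078 to 101413269, mm9) was present in every tumor. It was at 13.7, 8.07, 11.2 and 15.4 TPM in control tumors 1 to 4 and at 18.2, 10.2, 20.5 and 9.56 TPM in HMMR-Tg tumors 5 to 8. The lowest value was in a control tumor and both HMMR-Tg tumors 5 and 7 lay above all controls, but tumors 6 and 8 lay within the control range. The difference was 0.22 with a standard error of 0.32 (exact permutation p = 0.486, two-sided, 70 arrangements, smallest possible p = 0.0286). In the annotated Brca1 transcript of 23 exons, the last 3 exons hold 1284 of 6572 bases (19.5%) and lie at 101350078 to 101353568. A gene-level value does not separate these bases from the rest, so the loss of the floxed end was not examined. By semi-quantitative RT-PCR, the study reported lower Brca1 expression in developed tumors than in control tissue. None of the samples here was control tissue. Brca1 ranked at the 41st percentile of tested genes in mean level.

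Bard1 (chromosome 1, 71074072 to 71149720), whose protein forms the ubiquitin ligase with BRCA1, had one of the widest spreads among the 36 genes. It was at 6.73, 7.28, 6.07 and 9.95 TPM in control tumors 1 to 4 and at 15.1, 4.19, 13.9 and 7.21 TPM in HMMR-Tg tumors 5 to 8. Tumors 5 and 7 were again the highest, as for Brca1, and tumor 6 was the lowest of all. The genotype difference was 0.26 with a standard error of 0.38 (limma adjusted p = 0.9998). The within-tumor log2 ratio of Bard1 to Brca1 averaged -0.61 ± 0.35 (SD, n = 4) in control and -0.57 ± 0.38 with the transgene (exact permutation p = 0.886, adjusted over 4 ratios p = 0.886).

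Rbbp8, which encodes CtIP, the starter of end resection, was at 12.4, 28.9, 24.5 and 20.3 TPM in control and 38.9, 15.4, 19.2 and 20.7 TPM in HMMR-Tg tumors. Tumor 5 was the highest and control tumor 1 the lowest, and the middle of the 2 genotypes overlapped. Brip1, a helicase that binds BRCA1, was among the 3 lowest genes, at 2.54, 4.15, 4.24 and 4.22 TPM in control and 5.98, 3.61, 2.82 and 2.35 TPM in HMMR-Tg tumors. Control tumor 1 was low for Brip1 as it was for Rbbp8, and tumor 5 was the highest for both. Of the 4 genes of the BRCA1 complex, 3 had a difference above 0 and Brip1 one of -0.07.

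MRE11, RAD50 and NBN form the complex that senses a broken end and trims it. Mre11a (chromosome 9, 14589098 to 14641567) was at 22.8, 14.7, 64.3 and 15.9 TPM in control and 20.6, 27.6, 27.7 and 19.7 TPM in HMMR-Tg tumors. Control tumor 3 was 64.3 TPM while the other 7 lay between 14.7 and 27.7 TPM. Without that tumor the difference moved from -0.04 to 0.41, with no adjusted p under 0.888 when any single tumor was left out. Rad50 did not share the high value in tumor 3 and ran from 9.68 to 16.2 TPM over all 8 tumors, the least variable of the complex. Nbn ran from 8.51 TPM in control tumor 1 to 23.9 TPM in tumor 5, with a difference of 0.32 and a standard error of 0.32. The log2 ratio of Rad50 to Mre11a was -2.16 in tumor 3 and was between -1.03 and 0.14 in the other tumors.

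The genes that load the recombinase and exchange strands had low levels, with a median of 7.42 TPM over 9 genes. Brca2 (chromosome 5, 151325205 to 151372321) was the highest of them, at 40.0, 38.0, 35.5 and 28.3 TPM in control and 36.7, 18.2, 32.4 and 19.1 TPM in HMMR-Tg tumors. Tumors 6 and 8 were below every control tumor, and tumors 5 and 7 were within the control range. The difference was -0.45 with a standard error of 0.28 (limma unadjusted p = 0.133, exact permutation p = 0.2). Palb2, the bridge between BRCA1 and BRCA2, ran from 2.71 TPM in tumor 8 to 8.91 TPM in tumor 7. Its log2 ratio to Brca2 averaged -2.45 ± 0.23 (SD, n = 4) in control and -1.91 ± 0.44 with the transgene. The 0.53 between them was larger than either SD, but the test did not distinguish the genotypes (exact permutation p = 0.114, adjusted over 4 ratios p = 0.457).

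The 5 paralogs of the recombinase help it form filaments. Rad51b (chromosome 12, 80398338 to 80904257) was at 3.80, 12.2, 3.20 and 3.14 TPM in control and 3.51, 2.02, 2.93 and 2.68 TPM in HMMR-Tg tumors. A single tumor, control tumor 2, stood at 12.2 TPM, and the other 7 lay between 2.02 and 3.80 TPM. The difference of -0.62 (standard error 0.40, limma unadjusted p = 0.153) became -0.22 without that tumor. Xrcc3 was at 8.02, 8.13, 14.0 and 12.4 TPM in control and 14.5, 7.26, 9.64 and 7.17 TPM in HMMR-Tg tumors, highest in tumor 5 and lowest in tumor 8. Rad51c ran from 2.53 to 8.96 TPM, Rad51d from 3.59 to 9.33 TPM and Xrcc2 from 3.77 to 10.3 TPM, and the genotypes overlapped for each. Of the 2 other factors of strand exchange, Rad52, which anneals strands, ran from 12.3 to 32.4 TPM (difference -0.34), and the motor protein gene Rad54l from 9.80 to 16.7 TPM (difference 0.09). Lrrc41 shares 15.4% of the exon bases of Rad54l on the other strand, and the Rad54l value is uncertain to that extent.

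The 8 genes of the Fanconi core complex had a median mean level of 12.6 TPM and included the steadiest genes of all 36. Fance, an adaptor of the complex, had the smallest SD, 0.184 on the log2 scale, and ran from 22.7 to 36.0 TPM. Fancf, a scaffold subunit, was the lowest gene, at 2.88, 3.41, 2.72 and 3.26 TPM in control and 4.14, 2.34, 2.62 and 3.38 TPM in HMMR-Tg tumors. Fancb was at 2.86, 4.48, 4.23 and 3.92 TPM in control and 5.95, 3.06, 4.10 and 3.51 TPM in HMMR-Tg tumors. Tumor 5 was the highest tumor for both Fancf and Fancb, and their genotype differences were 0.00 and 0.06. Gas2 shares 15.0% of the exon bases of Fancf on the other strand.

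Fanca was at 18.3, 16.4, 28.4 and 31.0 TPM in control and 36.5, 16.9, 22.3 and 28.5 TPM in HMMR-Tg tumors. It was again highest in tumor 5, and the values of the 2 genotypes were interleaved. Zfp276 shares 7.7% of the exon bases of Fanca on the other strand. Fancl, the ubiquitin ligase subunit, had the largest SD of the 36 genes, 0.804, at 8.00, 28.4, 5.297 and 21.3 TPM in control and 9.01, 6.00, 13.1 and 17.1 TPM in HMMR-Tg tumors. Control tumors 2 and 4 were the highest and control tumor 3 the lowest, so the HMMR-Tg values lay inside the control range. Vrk2, which shares 13.7% of the exon bases of Fancl on the other strand, ran from 6.33 to 24.3 TPM, and its part in the Fancl values was not tested. Fancm, the DNA translocase of the pathway, was at 8.15, 5.79, 10.3 and 6.72 TPM in control and 6.11, 7.21, 4.95 and 5.47 TPM in HMMR-Tg tumors. Its 2 highest values were in control tumors 3 and 1, and the difference was -0.32 with a standard error of 0.26. Fancc ran from 15.1 to 33.7 TPM and Fancg from 8.58 to 15.0 TPM, with differences of 0.01 and 0.28.

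Fancd2 and Fanci, the pair that receives the ubiquitin, ran from 3.86 to 9.97 TPM and from 2.89 to 7.41 TPM, both highest in tumor 5. Their differences were -0.15 and -0.31, and the log2 ratio of Fanci to Fancd2 differed by -0.16 between the genotypes (exact permutation p = 0.486). Polg shares 14.8% of the exon bases of Fanci on the other strand.

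Among the kinases, Chek2 (chromosome 5, 111269036 to 111303152), which relays the ATM signal to p53, had the largest difference of the 36 genes. It was at 30.0, 56.2, 26.1 and 44.7 TPM in control and 31.3, 22.4, 20.5 and 20.6 TPM in HMMR-Tg tumors. HMMR-Tg tumors 6, 7 and 8 were below all controls, and tumor 5 lay above control tumors 1 and 3. The difference was -0.66 with a 95% interval of -1.30 to -0.02 (limma unadjusted p = 0.0433, adjusted p = 0.9998, exact permutation p = 0.0857). Without control tumor 2, the highest, it was -0.47 with an unadjusted limma p of 0.123. Leaving out control tumor 4 or any of HMMR-Tg tumors 6, 7 and 8 also gave unadjusted p values above 0.05, up to 0.101.

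Chek1, the kinase that acts below ATR at stalled forks, was at 28.2, 16.2, 16.5 and 19.4 TPM in control and 26.6, 24.8, 23.8 and 28.1 TPM in HMMR-Tg tumors. The HMMR-Tg tumors were close together and above 3 of the 4 controls, while control tumor 1 was the highest of all. The difference was 0.38 with a standard error of 0.23 (limma unadjusted p = 0.135, exact permutation p = 0.143). Atm ran from 5.02 to 11.0 TPM and Atr from 5.90 to 11.2 TPM, with differences of -0.12 for each.

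BLM and RMI1 dissolve the joined DNA molecules that recombination leaves. Rmi1 was at 15.7, 20.8, 21.1 and 17.5 TPM in control and 22.8, 12.6, 17.4 and 17.2 TPM in HMMR-Tg tumors, with tumors 5 and 6 at the ends. Blm ran from 6.66 to 16.1 TPM and was also highest in tumor 5. 53BP1 (encoded by Trp53bp1) and RIF1 hold back resection, and their loss is known to restore recombination in BRCA1-deficient cells. Trp53bp1 was at 51.4, 21.4, 44.3 and 48.5 TPM in control and 45.1, 24.4, 29.4 and 26.9 TPM in HMMR-Tg tumors. Rif1 was at 21.6, 14.7, 36.5 and 22.1 TPM in control and 30.6, 26.1, 40.3 and 27.0 TPM in HMMR-Tg tumors. Control tumor 2 was the lowest tumor for both genes, and their differences had opposite signs, -0.35 for Trp53bp1 and 0.42 for Rif1 with standard errors of 0.32 and 0.29. Tubgcp4 shares 15.0% of the exon bases of Trp53bp1 on the other strand.

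Parp1, which binds DNA nicks and is the target of PARP inhibitors, was the most abundant of the 36 genes. It was at 82.7, 43.2, 76.3 and 97.7 TPM in control and 74.6, 74.2, 61.9 and 56.4 TPM in HMMR-Tg tumors, with control tumors at both ends of the range. Polq encodes the polymerase of theta-mediated end joining, a route that cells without recombination rely on. It was at 4.90, 4.43, 6.14 and 6.67 TPM in control and 7.69, 2.80, 4.29 and 6.08 TPM in HMMR-Tg tumors. Tumors 5 and 6 held the highest and the lowest value, and the genotype difference was -0.13 with a standard error of 0.31.

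**Figure D2:**
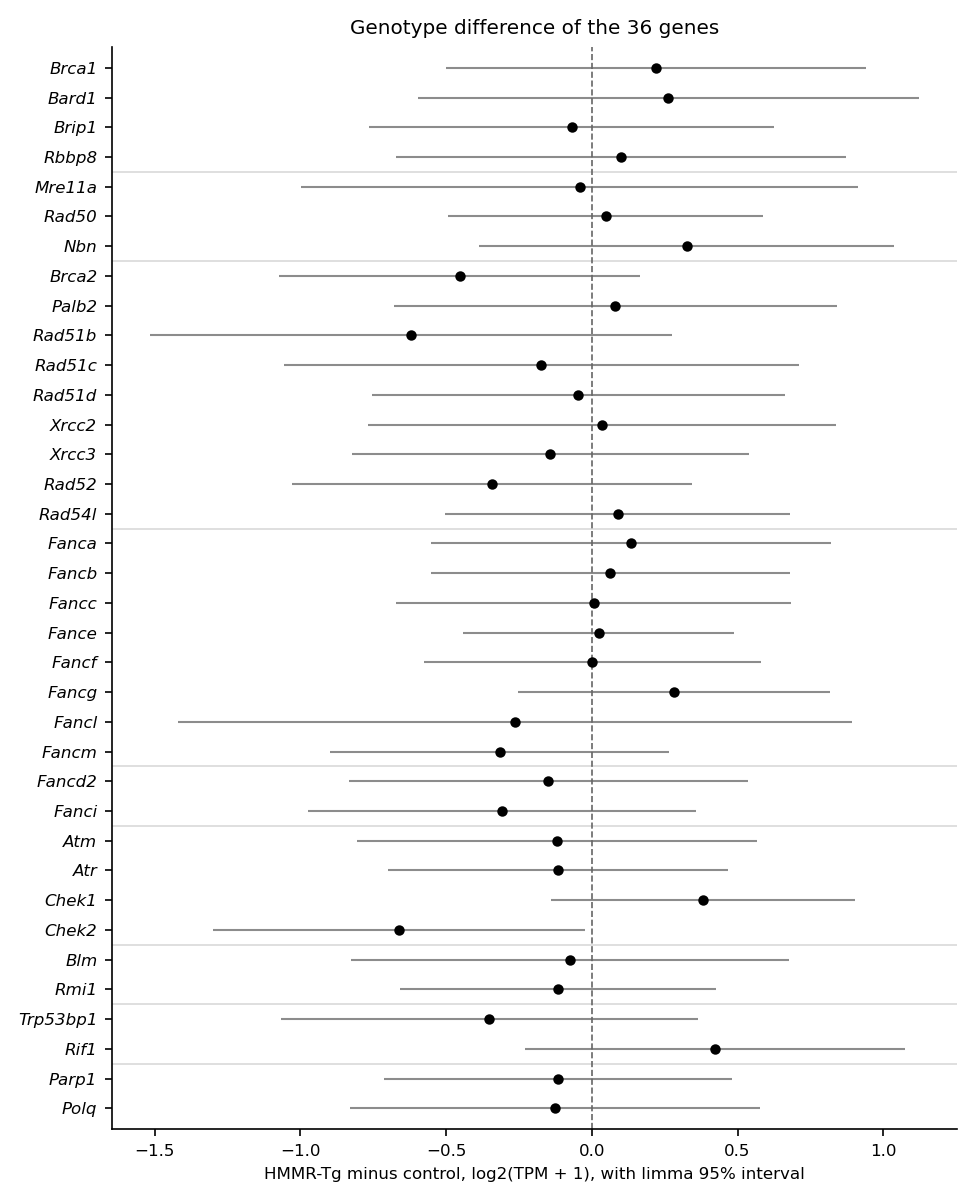
Difference between the genotype means of log2(TPM + 1), HMMR-Tg minus control, for each of the 36 genes (rows, grouped by role), with the 95% interval of the limma fit. The interval of Chek2 (-1.30 to -0.02) is the only 1 that does not hold 0, and differences run from -0.66 for Chek2 to 0.42 for Rif1.

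The 95% intervals differed in width between the genes. The narrowest, for Fance, ran from -0.44 to 0.49 around a difference of 0.02, and the widest, for Fancl, from -1.42 to 0.89 around -0.26.

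Other genes of the same pathways were examined from lists that hold no member. Of 49 further recombination and Fanconi genes, 26 had a difference above 0 and 23 below 0, and none passed the test (0 with an unadjusted limma p under 0.05). Of 25 end joining and end protection genes, 22 were tested, 10 with a difference above 0 and 12 below, with 0 past the test and 0 at an unadjusted p under 0.05. Mad2l2, a subunit of shieldin, which acts below 53BP1 and RIF1, was the only gene of these lists whose genotypes did not overlap. Over all tested genes, 2.23% did not overlap, so a single such gene in lists of 49 and 22 is no more than that share. Mad2l2 was at 17.49, 23.9, 23.7 and 24.1 TPM in control and 16.9, 17.47, 14.4 and 13.8 TPM in HMMR-Tg tumors. Control tumor 1 lay just above HMMR-Tg tumor 6. The difference was -0.48 (limma unadjusted p = 0.0505, adjusted p = 0.9998). Genotypes that do not overlap always give the smallest exact permutation p of this design, 0.0286, so that p adds nothing to the separation. Polm, a polymerase of end joining, and Swsap1, a partner of the recombinase, came next in unadjusted p, with differences of -0.58 and 0.45.

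The second question was whether the spread between tumors followed cell division. A mitosis score, the mean log2(TPM + 1) of 25 mitosis genes that include no member, was 5.17, 5.49, 5.58 and 5.51 in control and 6.08, 5.02, 5.73 and 5.50 in HMMR-Tg tumors. Tumor 5 was the highest and tumor 6 the lowest, both HMMR-Tg. The mean of the 36 genes followed a like order at its ends, with 3.97 in tumor 5 and 3.44 in tumor 6, and 3.53, 3.68, 3.79, 3.79, 3.64 and 3.50 in tumors 1, 2, 3, 4, 7 and 8. Tumors 6 and 1, the lowest in mitosis score, were also the highest in skeletal muscle score, at 4.71 and 4.45.

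In a limma fit with genotype and the score, 29 of the 36 genes had a positive slope on the score and 7 a negative one, and none passed the test (adjusted p of at least 0.9649, and 0% of 14810 genes passed). A positive slope was common among all genes, at 63.9% of the 14810, against 80.6% of the members. The median slope was 0.53 log2 units for each unit of the score, against 0.19 for all tested genes. Without tumor 5 it was 0.33 against 0.18 for all genes, and it ran from there to 0.67 without tumor 6 as each tumor was left out. At an unadjusted p under 0.05, 2 members had a positive slope and 0 a negative one, against 3.7% and 1.1% of all genes. Bard1 had the steepest slope, 1.45 with a standard error of 0.47 (limma unadjusted p = 0.0146). Rbbp8 came next with a slope of 1.28 and a standard error of 0.43 (limma unadjusted p = 0.0176). In order of unadjusted p, Rmi1, Xrcc3, Fanca and Polq followed, with slopes of 0.76, 0.94, 0.95 and 0.94 and p between 0.0524 and 0.0712. Another 7 members had slopes of 0.77 to 0.89, above that of Rmi1, with unadjusted p between 0.0925 and 0.13. Slopes of the recombinase loading group were positive for 9 of 9 genes, and those of the Fanconi core for 6 of 8, beside the 63.9% of all genes. The kinases stood apart from this count, with 3 of 4 slopes negative, at -0.21 for Atm, -0.05 for Atr and -0.23 for Chek1, and each of these 3 changed sign when some single tumor was left out.

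**Figure D3:**
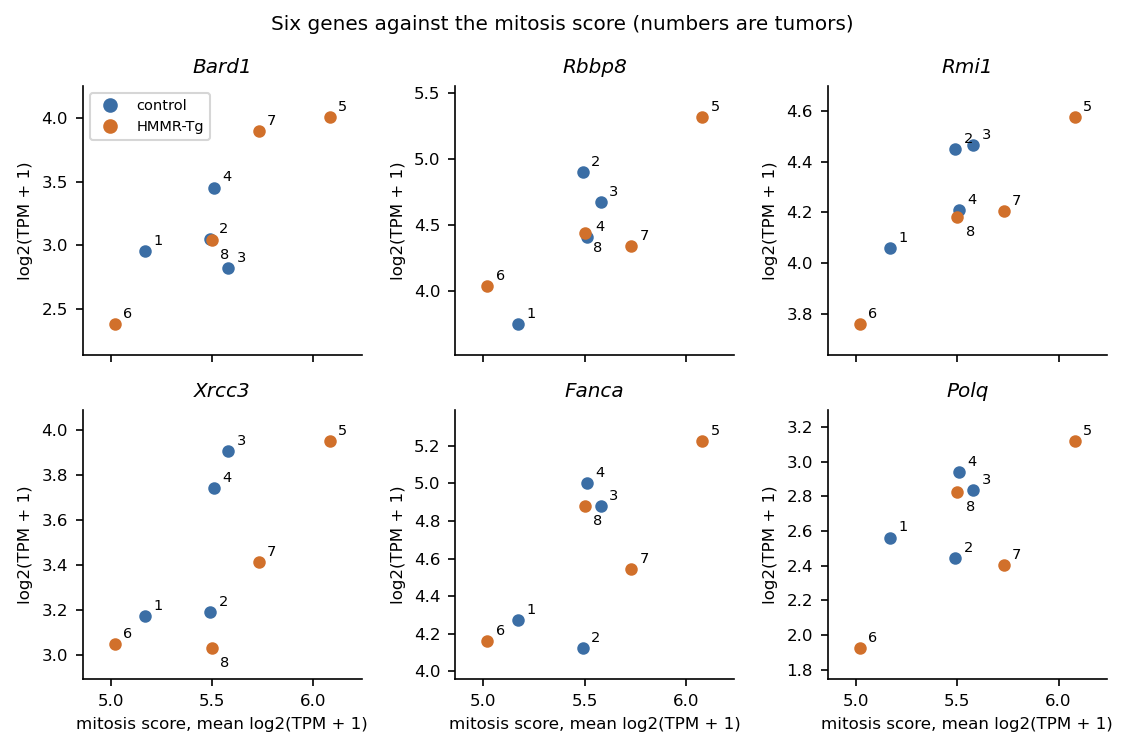
Level of 6 genes in log2(TPM + 1) against the mitosis score of the same tumor, 1 panel a gene, with each point a tumor marked by its number, control in blue and HMMR-Tg in orange. Tumor 5 (score 6.08) holds the highest value in every panel, and tumor 6 (score 5.02) the lowest for Bard1, Rmi1 and Polq.

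The relation of Bard1 to the score gave a Pearson r of 0.86 (exact permutation p = 0.00719, adjusted over 14810 genes p = 0.717) and a Spearman rho of 0.74 (permutation p = 0.0458, adjusted p = 0.821). Without tumors 5 and 6, the 2 farthest from the median score, r was 0.59. The control tumors did not follow that order, since control tumor 3, with the highest score of the 4 (5.58), had the lowest Bard1 level of the 4 (6.07 TPM). Fancb had the highest r of the 36 genes, 0.92 (exact permutation p = 0.0036, adjusted p = 0.717), with a rho of 0.71 (permutation p = 0.0576, adjusted p = 0.836), and r was 0.78 without tumors 5 and 6. For Rbbp8, r was 0.82 (exact permutation p = 0.016, adjusted p = 0.74), rho was 0.57 (permutation p = 0.151, adjusted p = 0.867) and r without those tumors was 0.60. Without those tumors r went from 0.71 to -0.03 for Polq, from 0.62 to 0.02 for Fancc and from 0.61 to 0.01 for Fancd2. It went from 0.54 to -0.58 for Fanci, from 0.67 to -0.25 for Fancf and from 0.41 to -0.27 for Brca2. The relations of these genes were thus not seen among the remaining tumors. Their scores spanned only 5.17 to 5.73 rather than 5.02 to 6.08, and a narrower span can itself lower r. Over all members, the count with a positive r went from 29 to 25 of 36 and the median r from 0.41 to 0.25, while over all genes the share with a positive r went from 63.0% to 54.1%. Leaving out the muscle-rich tumors 1, 3 and 6 gave a median slope of 0.90 against 0.24 for all genes, 58.7% of which had a positive slope. No member then had an unadjusted limma p under 0.05, but so few tumors were left that this count says little.

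The other lists were set beside these slopes and the 63.9% of all genes with a positive one. Of all genes, 3.7% had a positive slope at an unadjusted limma p under 0.05. All 27 S-phase genes had a positive slope and 14 an unadjusted p under 0.05, with a median of 0.88. Of the 49 further recombination and Fanconi genes, 42 had a positive slope and 6 an unadjusted p under 0.05, among them Rmi2, a partner of RMI1 (slope 1.30), and Rnf168, a histone ubiquitin ligase (slope 1.29). Of the 22 end joining and end protection genes, 19 had a positive slope and 1, Parp3, an unadjusted p under 0.05 (slope 1.05). That is 4.55% of the list, near the 3.7% of all genes. No slope in these lists passed the adjusted test. Over the 630 pairs of members, the mean correlation across the 8 tumors was 0.18, and 67.5% of pairs were positive, against a mean of 0.02 over all tested genes. The highest pairs were Rbbp8 with Fancb at 0.96 and Rad52 with Parp1 at 0.95, and the lowest was Fancg with Fancm at -0.82. Within each of the 8 tumors the genes share scaling and library, so the values are descriptions.

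In single tumors some members deviated in the same direction as the genes beside them on the chromosome. For each gene and tumor, a deviation was taken as log2(TPM + 1) minus the mean of the other 7 tumors, and set beside the median deviation of tested genes that start within 5 megabases, of which each member had between 18 and 190. Over the 288 gene and tumor points, the correlation between a member and its neighbors was 0.66. The same measure over 13873 genes gave 0.33. A deviation above 1 in size occurred in 5 of the 288 points, 1.7% against 10.7% of all genes' points. The neighbors had the same sign in 5 of 5 points against 64.6% for all genes. Fancl entered this count in both tumor 2 and tumor 3, at 1.39 and -1.15, with neighbors at 0.05 and -0.52. A shared sign in tumor 2 therefore came with almost no shift of the neighbors. With a window of 10 megabases the sign was shared in 4 of 5 points against 64.2%, Mre11a in tumor 3 being the exception, and the correlations were 0.59 for members and 0.32 for all genes. Genes of a tumor share its scaling and library, so these are descriptions with no test.

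**Figure D4:**
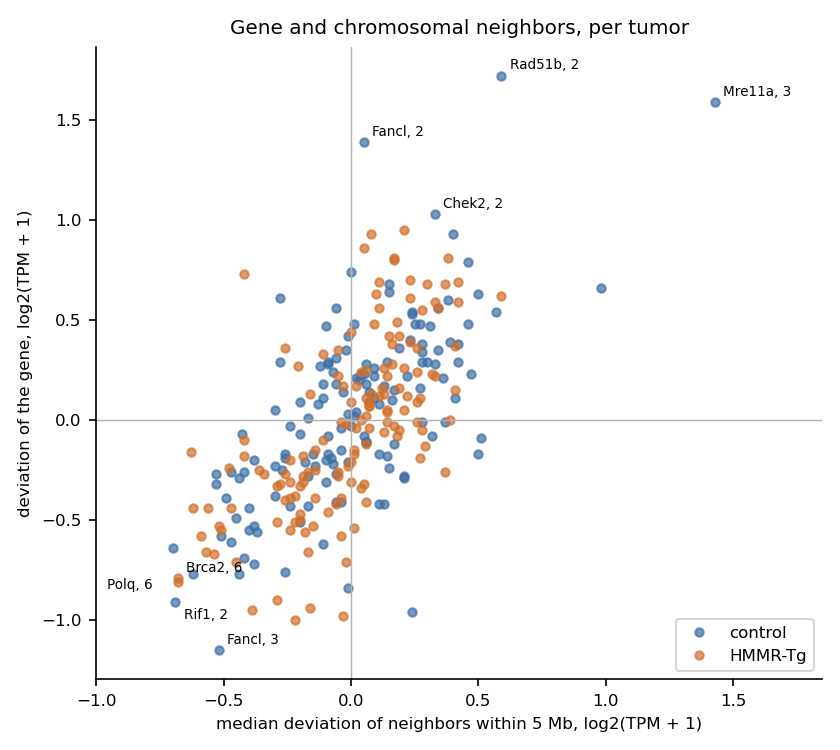
Deviation of each member in each tumor (vertical axis) against the median deviation of its chromosomal neighbors within 5 megabases (horizontal axis), both in log2(TPM + 1), with control tumors in blue and HMMR-Tg in orange, and gene and tumor number beside the outlying points. Mre11a in tumor 3 lies at 1.59 with neighbors at 1.43, while Fancl in tumor 2 lies at 1.39 with neighbors at 0.05.

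Mre11a in control tumor 3 was 1.59 above the other tumors, and its 24 neighbors were 1.43 above, 83.3% of them above 0. The raised stretch ran through both sides of the gene. In the 5 megabases before Mre11a the median of 11 genes was 1.46, in the 5 after it that of 13 genes was 1.32, and from 5 to 10 after it 64 genes had a median of -0.46. Over the whole 10 megabases on either side, the median of 107 neighbors was -0.27. From 10 to 5 megabases before it, 19 genes had a median of 0.69, and there Yap1, a growth-promoting transcriptional coactivator, was at 394 TPM against a mean of 63.2 TPM in the other 7 tumors. Yap1 was chosen after its value was seen. Atm, on the same chromosome at 53247254, was 0.61 above the other tumors in tumor 3 while its neighbors were at -0.28.

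Rad51b in control tumor 2 was 1.72 above the other tumors, with a median of 0.59 for its 61 neighbors, 82% of which were above 0. In the 5 megabases before Rad51b, 31 of 33 genes were above 0, with a median of 0.66, and in the 5 after it 19 of 28, with a median of 0.45. Farther out the medians were -0.17 (38 genes before) and -0.07 (51 genes after), and over all 150 neighbors within 10 megabases the median was 0.07. Rad51b itself lay above most genes of the stretch.

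**Figure D5:**
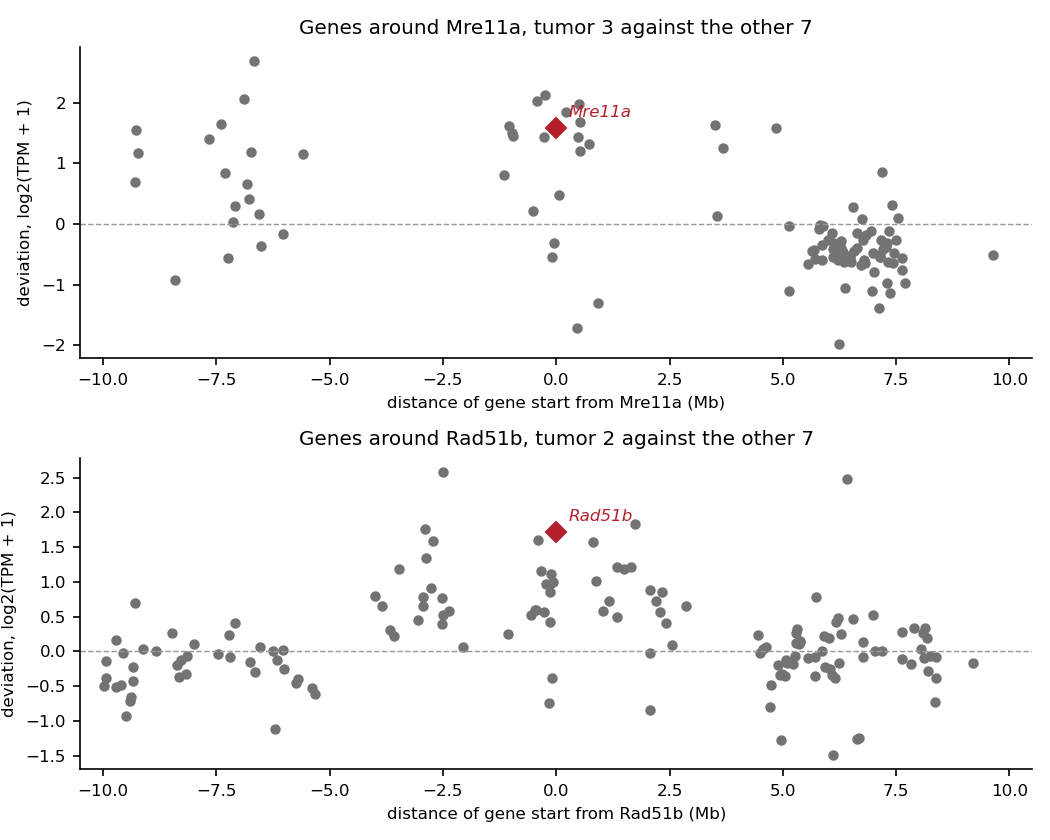
Deviation in log2(TPM + 1) of every tested gene within 10 megabases of Mre11a in control tumor 3 (top) and of Rad51b in control tumor 2 (bottom), by distance of the gene's start, with the named gene as a red diamond. Genes near Mre11a and on its left are mostly above 0 and those beyond 5 megabases on its right have a median of -0.46, and the medians farther than 5 megabases from Rad51b are -0.17 and -0.07.

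Brca2 and Chek2 both lie on distal chromosome 5, beyond 100 megabases. The 497 other tested genes there had median deviations of 0.00, 0.38, -0.06 and 0.78 in control tumors 1 to 4 and of -0.14, -0.61, -0.29 and -0.02 in HMMR-Tg tumors 5 to 8, and the median genotype difference was -0.46. Chek2 deviated by 0.02, 1.03, -0.20 and 0.66 in control and by 0.09, -0.44, -0.58 and -0.58 in HMMR-Tg tumors. Its sign was that of the region in tumors 2, 3, 4, 6, 7 and 8, and tumor 8 was low for Chek2 while its neighbors were at -0.04. Brca2 deviated by 0.47, 0.39, 0.27 and -0.09 in control and by 0.33, -0.79, 0.13 and -0.71 in HMMR-Tg tumors. Its sign was that of the region in 3 of 8 tumors (2, 6 and 8), against 6 of 8 for Chek2, and in tumor 4 Brca2 was at -0.09 with the region at 0.78. Its 31 neighbors were at -0.68 in tumor 6 and at -0.02 in tumor 8, the 2 tumors in which Brca2 was lowest. What share of the difference of either gene the region holds was not tested.

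Other members moved with their neighbors in a single tumor. Polq was at -0.81 in tumor 6 with 73 neighbors at -0.68, Rif1 at -0.91 in tumor 2 with 21 neighbors at -0.69, and Fancm at 0.63 in tumor 3 with 27 neighbors at 0.50. Others did not. Brca1 was at 0.73 in tumor 7 with 190 neighbors at -0.42, Nbn at -0.96 in tumor 1 with 31 neighbors at 0.24, and Fancc at 0.86 in tumor 5 with 62 neighbors at 0.05.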

How the data were processed

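RNA of 8 bulk mammary tumors was analysed, and tumors were assigned to a genotype by the title of their label. The deposited table holds gene-level TPM, computed by the authors before deposit, with columns that sum to between 994000.9 and 994984.0. The study's methods name Kallisto and tximport, while the submitters' processing notes name STAR 2.4.0f1, SAMtools 0.1.18 and bedtools, and both name build mm9. The sources do not say which of them made the table, which bears on genes whose exons overlap another gene. TPM keeps no depth, so no counting interval could be given.

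Symbols and coordinates came from GENCODE M1 (mm9), with newer symbols from RefSeq. Tests covered the 14835 genes that averaged 1 TPM or more, on log2(TPM + 1) with limma 3.58.1 (R 4.3.3), with trend, Benjamini-Hochberg adjustment across the whole set and a threshold of 0.05. The mitosis score was fitted beside genotype over 14810 genes. Single genes and the 4 ratios of partners were compared between genotypes by exact permutation over 70 arrangements. Permutation p-values of Pearson r and Spearman rho with the mitosis score came from all 40320 orders of the 8 tumors. All tests were two-sided. The limma fits of genotype and of the mitosis score were also run on simulated data with known changes, and the permutation tests were not. Other steps used matplotlib 3.10.9, scipy 1.17.1, numpy 2.4.6, pandas 2.3.3 and Python 3.11.15.

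The members and the gene lists were chosen with earlier results of these data known. Values in every tumor were given for Brca1 and Bard1, the 6 members with the smallest unadjusted p for genotype and the 6 for the mitosis score, the 3 highest, the 3 lowest, the 4 most variable, and those on distal chromosome 5. From the other lists, the 3 smallest p of either test were named. Alternatives were pseudocounts of 0.1 and 5, no minimum or 5 TPM, 3 other scalings, other moderation or weights, the S-phase score, other covariates, a window of 10 megabases, each tumor left out, and tumors 1, 3 and 6 left out.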

Additional observations from a re-analysis of the deposited data

Results flagged for a closer look

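In 72 groups of 4 tumors (36 genes in each genotype), 6 held a tumor farther from the other 3 than Dixon's 95% critical value allows. For independent groups chance gives about 1 in 20, or 3.6. The 72 groups come from the same 8 tumors, and no share over all tested genes is given. Whether 6 is an excess was therefore not tested. Brip1 was at 2.54 TPM in control tumor 1, against 4.15 to 4.24 TPM in the other controls. Mre11a was at 64.3 TPM in control tumor 3, against 14.7 to 22.8 TPM, and Rad51b at 12.2 TPM in control tumor 2, against 3.14 to 3.80 TPM. Rad51d was at 3.59 TPM in HMMR-Tg tumor 8, against 8.37 to 9.19 TPM in the others of its genotype. Fancc stood apart in both genotypes, at 27.8 TPM in control tumor 3, against 16.4 to 18.3 TPM, and at 33.7 TPM in HMMR-Tg tumor 5, against 15.1 to 17.5 TPM.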

How the results depend on the processing

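No member passed the adjusted test of genotype or of the mitosis score under any alternative run, and 13 of the 36 genes kept the sign of their genotype difference under all of them, 6 above 0 (Brca1, Bard1, Nbn, Fancg, Chek1 and Rif1) and 7 below (Brca2, Rad51b, Xrcc3, Rad52, Fancm, Fanci and Chek2). The unadjusted limma p of Chek2 ran from 0.0169 to 0.123, with no adjusted p under 0.764. TPM keeps no depth, so no counting error could be given for low genes such as Fancf and Brip1. No paired analysis was possible because the tumors are numbered 1 to 8 and the genotypes share no number. The cause of the changes below was not tested.

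With a pseudocount of 0.1, 1 gene of the whole table was called lower and Fancf moved to -0.005. Quantile normalization put Fancf at -0.01. Rescaling without mitochondrial and muscle genes gave -0.004 for Xrcc2, -0.037 for Fancc, -0.02 for Fance and -0.034 for Fancf. Array weights gave 0.049 for Mre11a, 0.013 for Rad51d and -0.023 for Fancf. With the mitosis score as a covariate, 9 of 36 genes lay above 0, and Rbbp8 was at -0.088, Fanca at -0.006, Fancb at -0.05, Fancc at -0.112 and Fancf at -0.063. Without tumors 1, 3 and 6, 3 genes of the table were called higher, and the differences were 0.524 for Mre11a, -0.303 for Xrcc2, -0.162 for Fance, 0.025 for Fancd2, 0.028 for Trp53bp1 and 0.092 for Polq, with a mitosis slope of 0.299 for Atr. The members with a positive mitosis slope at an unadjusted p under 0.05 numbered 4 with no filter, 4 without trend and 6 with array weights. They numbered 5 with the S-phase score and 0 without tumors 1, 3 and 6. The share of all genes past that cut, 3.7%, is given for the main fit alone. Such counts under an alternative, or with a tumor left out, therefore have no like share beside them and are not results about the members. With a neighbor window of 10 megabases, the neighbor median moved to -0.27 for Mre11a in tumor 3, 0.07 for Rad51b in tumor 2 and 0.04 for Fancf in tumor 5.

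With each tumor left out in turn, the count of genes called lower ran from 0 to 1, the members above 0 from 10 to 19, the members higher at an unadjusted p under 0.05 from 0 to 1 and those lower from 0 to 2, the members with such a positive slope from 0 to 3, and the median slope of the members from 0.327 to 0.675. Genotype differences that changed sign ran from -0.279 to 0.073 for Brip1, -0.161 to 0.266 for Rbbp8, -0.274 to 0.413 for Mre11a, -0.062 to 0.167 for Rad50, -0.086 to 0.387 for Palb2, -0.438 to 0.061 for Rad51c, -0.159 to 0.224 for Rad51d, -0.197 to 0.255 for Xrcc2 and -0.04 to 0.243 for Rad54l. In the Fanconi genes they ran from -0.041 to 0.315 for Fanca, -0.09 to 0.168 for Fancb, -0.244 to 0.169 for Fancc, -0.088 to 0.127 for Fance, -0.112 to 0.096 for Fancf, -0.645 to 0.096 for Fancl and -0.373 to 0.018 for Fancd2. In the others they ran from -0.297 to 0.037 for Atm, -0.237 to 0.004 for Atr, -0.291 to 0.113 for Blm, -0.247 to 0.025 for Rmi1, -0.355 to 0.031 for Parp1 and -0.31 to 0.088 for Polq. Mitosis slopes ran from -0.427 to 0.322 for Atm, -0.16 to 0.203 for Atr and -0.74 to 0.036 for Chek1. The difference in log2 ratio ran from -0.066 to 0.225 for Bard1 over Brca1 and from -0.326 to 0.441 for Rad50 over Mre11a.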
